A study of Mus musculus with 2 samples.

Results

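Of the 39 protein-coding Hox genes of the mouse, 38 were described here, of 43629 genes with a row in the count tables. The 39 were taken as every gene whose symbol in GENCODE release M21 is Hoxa, Hoxb, Hoxc or Hoxd followed by a number only, with the biotype protein_coding. The rule uses no measured value, although earlier results of these data were known when it was set. The genes lie in 4 clusters, Hoxa on chromosome 6, Hoxb on chromosome 11, Hoxc on chromosome 15 and Hoxd on chromosome 2 (GRCm38 coordinates throughout). Counts and sums below are over the 38.

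The RNA came from mouse embryonic stem (ES) cells with a Dgcr8 knockout on a 129/Ola background at passage 7, the tissue of origin being given as the blastocyst. Polyadenylated RNA of 2 libraries of this 1 group, replicates A and B, was sequenced after a reverse-stranded preparation. The knockout was made with paired CRISPR/Cas9. Both titles also carry KO2 and d5, codes without an explanation in the labels, and it is not known if they stand for a clone or for time in culture. The labels do not say if A and B were grown apart, so their spread may reflect technique alone. No unedited library was analysed here, and the values below are levels and not effects of the knockout.

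Hox genes encode homeodomain transcription factors that give cells of the embryo their position along the body axis. In each cluster the genes stand in order of their paralog number. Low numbers are switched on early and towards the head, and high numbers late and towards the tail. In ES cells the clusters are known to be covered by Polycomb repressive marks together with marks of active promoters, and retinoic acid, Cdx factors and trunk signals are known to open them during differentiation. Dgcr8 is the partner of Drosha in the Microprocessor, which cuts hairpins out of primary microRNA transcripts. MicroRNA genes of the miR-10 and miR-196 families lie within the Hox clusters, and Hox transcripts are among the known targets of miR-196.

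The mature sequences of these clustered families are shown because their maturation depends on Dgcr8 and because 1 of them pairs with a Hox transcript along its whole length. They are RefSeq sequences on GRCm38.p6, with the seed, bases 2 to 8, in capitals.
miR-196a-5p: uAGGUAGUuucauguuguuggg
miR-196b-5p: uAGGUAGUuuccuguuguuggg
miR-10a-5p: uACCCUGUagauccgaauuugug
miR-10b-5p: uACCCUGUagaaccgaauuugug
The first pair shares the seed AGGUAGU and the second pair the seed ACCCUGU. miR-196a-5p is encoded at chr11:96265187-96265208 (+ strand, Mir196a-1, in the Hoxb cluster) and at chr15:102973365-102973386 (+ strand, Mir196a-2, in Hoxc). miR-196b-5p is encoded at chr6:52230129-52230150 (- strand, in Hoxa), miR-10a-5p at chr11:96317186-96317208 (+ strand, in Hoxb) and miR-10b-5p at chr2:74726074-74726096 (+ strand, in Hoxd).

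Library A held 27872396 counts and library B 30327146. CPM stands for counts per 1000000 counts of the library, with exact two-sided 95% Poisson limits that cover counting error only. For a count of 0 a limit of 3 counts is given instead, 0.108 CPM in A and 0.0989 CPM in B. Dgcr8 itself had 45.0 CPM in A and 64.0 CPM in B over the whole gene, and since the labels do not say which exons were removed, that sum does not check the knockout. All 8 ES cell markers passed 1 CPM in both libraries, those with most counts being Dppa5a at 4252 CPM in A and 1767 CPM in B, Pou5f1 at 1805 CPM in A and 1542 CPM in B, and Tdgf1 at 776 CPM in A and 678 CPM in B.

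Transcripts of nearly all Hox genes were scarce. Of the 38 genes, 2 reached 1 CPM in both libraries, namely Hoxb9 and Hoxc13, which is 5.26%, against 55.6% of the 21551 protein-coding genes. Hoxb13 passed 1 CPM in A alone. The 38 genes together had 395 counts in A and 217 in B, a sum of 14.2 CPM in A and 7.16 CPM in B. The median Hox gene had 2 counts in A and 2 in B. In bulk RNA a few cells with many Hox transcripts and many cells with few cannot be told apart.

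No count at all fell on 8 Hox genes in either library. These were Hoxa2 and Hoxa6, Hoxb2, Hoxb5 and Hoxb6, and Hoxd3, Hoxd11 and Hoxd12. The limit of 3 counts allows each up to 0.108 CPM in A and 0.0989 CPM in B at this depth. The share of Hox genes with no count, 21.1%, was close to the 21.3% of all protein-coding genes with no count, so the low level of the family lay in the many genes with a handful of reads. Of the remaining genes, 21 had 1 to 10 counts over both libraries, 6 had 11 to 50 and 3 had over 50. A count was found for 23 genes in both libraries, for 1 gene in A alone (Hoxc9, 1 count) and for 6 in B alone. Hoxa10 was the highest of those 6, with 0 counts in A and 6 in B, and the limit of 0.108 CPM in A overlaps the counting interval in B.

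**Figure D1:**
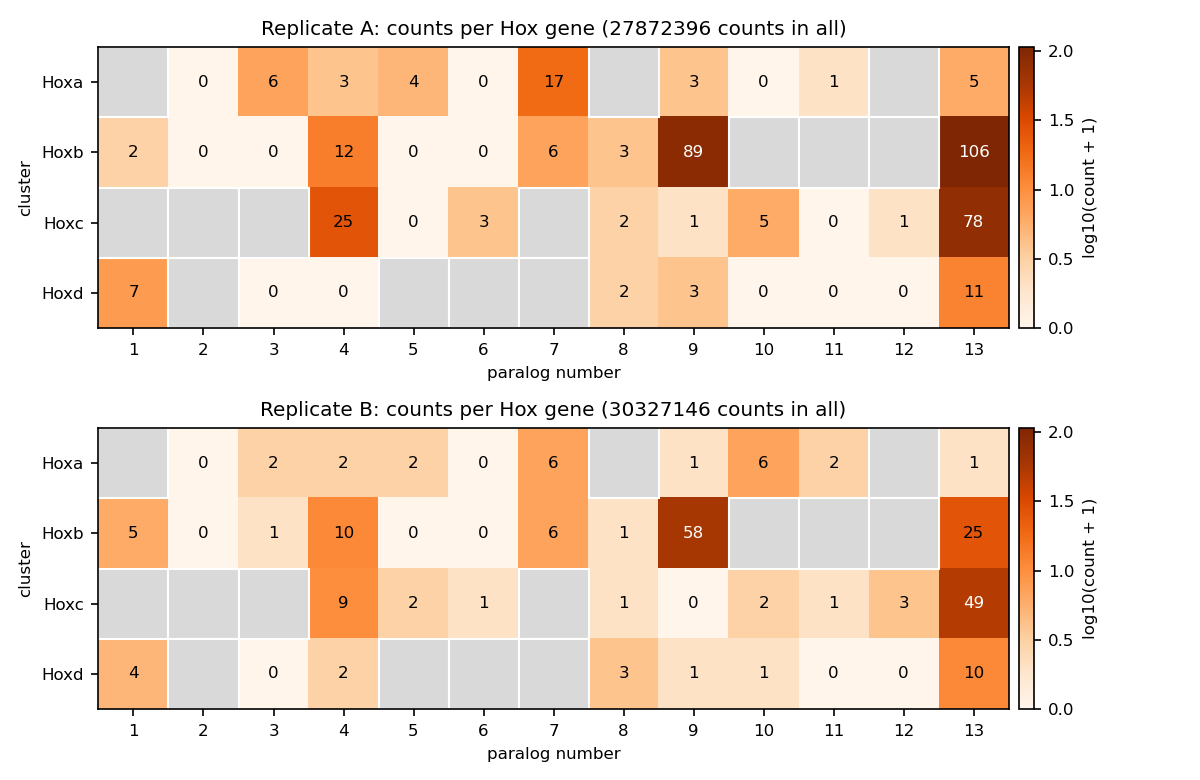
Counts of the Hox genes described in replicate A (upper panel) and replicate B (lower panel), by cluster (vertical axis) and paralog number (horizontal axis). The colour gives log10(count + 1) and grey squares hold no value; Hoxb9, with 89 counts in A and 58 in B, and the 13th paralogs of Hoxb and Hoxc stand out from a field of low counts.

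Hoxb13 (ENSMUSG00000049604, chr11:96194316-96197447, + strand), the last gene of its cluster and a regulator of tail and prostate development, had 106 counts in A and 25 in B. That was 3.80 CPM in A and 0.824 CPM in B, or 1.72 RPKM in A and 0.374 RPKM in B (mean 1.05 ± 0.955, SD, n = 2). It was the only Hox gene above 1 CPM in 1 library and below it in the other.

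Hoxb9 (ENSMUSG00000020875, chr11:96271457-96276595, + strand), which acts in the thoracic skeleton and the mammary gland, had 89 counts in A and 58 in B. It reached 3.19 CPM in A and 1.91 CPM in B, or 1.24 RPKM in A and 0.743 RPKM in B (mean 0.992 ± 0.352, SD, n = 2). Hoxc13 (ENSMUSG00000001655, chr15:102921103-102928814, + strand), known for its role in hair and nail formation, had 78 counts in A and 49 in B. It reached 2.80 CPM in A and 1.62 CPM in B, or 1.14 RPKM in A and 0.657 RPKM in B (mean 0.897 ± 0.340, SD, n = 2). Per length these 3 stood in the order Hoxb13, Hoxb9 and Hoxc13 in A and Hoxb9, Hoxc13 and Hoxb13 in B, and their means differed by less than the spread between libraries.

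**Figure D2:**
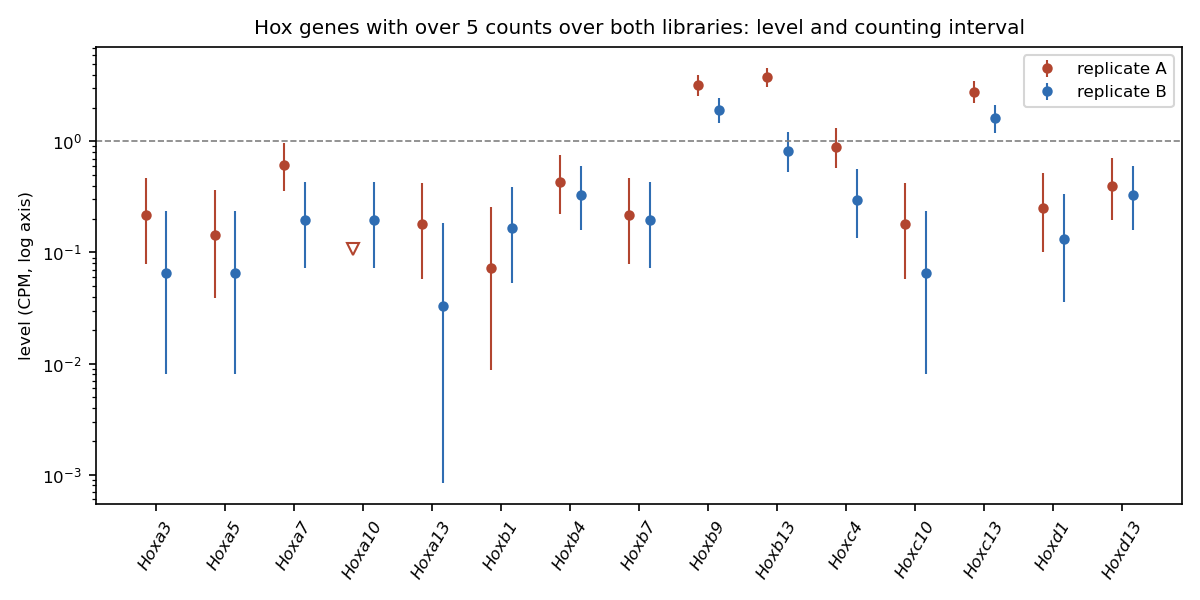
Level in CPM (log axis) of 15 Hox genes with over 5 counts over both libraries, replicate A left of replicate B. Bars are exact 95% Poisson limits, the open triangle marks the limit of 0.108 CPM that a count of 0 allows in A, and the dashed line is 1 CPM; the intervals of A and B are apart for Hoxb9, Hoxb13, Hoxc4 and Hoxc13 and overlap for the others.

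Hoxb9, Hoxb13 and Hoxc13 had 273 counts in A and 132 in B between them. The other 35 genes together had 122 counts in A and 85 in B, with no gene above 25 counts in A or 10 in B. Next after them came Hoxc4 with 25 counts in A and 9 in B, Hoxa7 with 17 in A and 6 in B, Hoxb4 with 12 in A and 10 in B, and Hoxd13 with 11 in A and 10 in B. Hoxb7 had 6 counts in each library. Counts of Hoxd3, Hoxd4 and Hoxb3 are uncertain by annotation. Of the exon bases of Hoxd3 62.3% lie in other genes of the same strand, of those of Hoxd4 52.3%, and 52.9% of Hoxb3 lies opposite the antisense gene Hoxb3os. A read in such a stretch may have been counted for neither gene.

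Among Hoxb, Hoxc and Hoxd, the sum over the cluster was highest in Hoxb, with 7.82 CPM (6.82 to 8.93) in A and 3.50 CPM (2.86 to 4.23) in B, most of it Hoxb9 and Hoxb13. Hoxc had 4.13 CPM (3.41 to 4.95) in A and 2.24 CPM (1.74 to 2.84) in B, mostly Hoxc13, and its intervals lay below those of Hoxb in both libraries. Without the highest gene of each cluster the mean sums were 3.11 CPM in Hoxb and 0.977 CPM in Hoxc. Most of what remained in Hoxb was Hoxb13, with a mean of 2.31 CPM. The lead of Hoxb thus rests on Hoxb9 and Hoxb13. In Hoxc every gene had a count, the lowest per length being Hoxc9 with 1 count in A and 0 in B. Hoxd was the quietest of these clusters, with 23 counts in A and 21 in B, a sum of 0.825 CPM (0.523 to 1.24) in A and 0.692 CPM (0.429 to 1.06) in B. Its highest gene was Hoxd13, at 0.159 RPKM in A and 0.133 RPKM in B, and 3 of its 9 genes had no count. The Hoxd intervals lay below those of Hoxb and Hoxc in both libraries, for sums that include Hoxb9, Hoxb13 and Hoxc13.

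From paralog group 4 on, most counts lay in the posterior genes Hoxb9, Hoxb13 and Hoxc13. Paralog group 13, with 4 genes, had 200 counts in A and 85 in B, most of them from Hoxb13 and Hoxc13. Paralog group 9 had 96 in A and 60 in B, nearly all Hoxb9. Paralog group 4 had 40 in A and 23 in B, led by Hoxc4, and paralog group 2, with 2 genes, had none. Of the counts in groups 4 to 13, the posterior groups 9 to 13 held 79.7% (75.3 to 83.7, exact Clopper-Pearson) in A and 78.0% (71.8 to 83.5) in B. The central groups 4 to 8 held 20.3% in A and 22.0% in B, with 15 genes against the 16 of the posterior groups. The intervals of these shares overlapped between the libraries. Without Hoxb9, Hoxb13 and Hoxc13, the posterior groups had 30 counts in A and 28 in B, against 77 in A and 45 in B in the central groups. The median gene per length had 0.0270 RPKM in A and 0.0235 in B in the posterior groups, and 0.0408 RPKM in A and 0.0224 in B in the central groups. The posterior excess thus rests on these 3 genes. Some paralogs of 1 group stood at unlike levels per length. Within group 13, Hoxa13 had 0.0726 RPKM in A and 0.0133 in B, while Hoxb13 had 1.72 in A and 0.374 in B. Hoxb1 and Hoxd1 were alike in B, with 0.0710 and 0.0708 RPKM. In A Hoxb1 had 0.0309 RPKM from 2 counts and Hoxd1 0.135 RPKM from 7 counts, and their counting intervals in CPM overlapped.

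Both libraries belong to the same group, so the comparison of A with B measures how far the Hox levels vary between libraries and says nothing of the knockout. Of the 14583 genes tested, which had at least 1 CPM in A or in B, 76.8% were called different by the exact binomial test with Benjamini-Hochberg adjustment, 37.7% as higher in A and 39.1% as higher in B. All 3 of the Hox genes described that entered the test were called, and all were higher in A. Hoxb13 entered it through A alone, the library where it was higher, so its direction was partly set by the filter. Ratios were taken between values of log2(CPM + 0.5) after TMM scaling, which understates them for low genes, and the median log2 ratio of all tested genes was 0.003.

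The ratio of A over B was 3.08-fold for Hoxb13 (log2 1.62, exact binomial test, adjusted p = 6.34e-13). It was 1.47-fold for Hoxc13 (log2 0.56, exact binomial test, adjusted p = 0.0137) and 1.44-fold for Hoxb9 (log2 0.53, adjusted p = 0.0144). The libraries differ along GC content. With the tested protein-coding genes in 10 equal bins of GC content, the median log2 ratio was -0.53 in the lowest bin and 0.57 in the highest. Hoxb9 lies in the seventh bin, whose median was 0.16, and Hoxb13 and Hoxc13 in the eighth with 0.30. After subtraction of these medians the log2 ratios were 1.32 for Hoxb13, 0.37 for Hoxb9 and 0.25 for Hoxc13. With the expected ratio shifted in this way, the exact binomial test still called Hoxb13 (adjusted p = 1.61e-09), but not Hoxb9 (adjusted p = 0.0645) or Hoxc13 (adjusted p = 0.190).

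**Figure D3:**
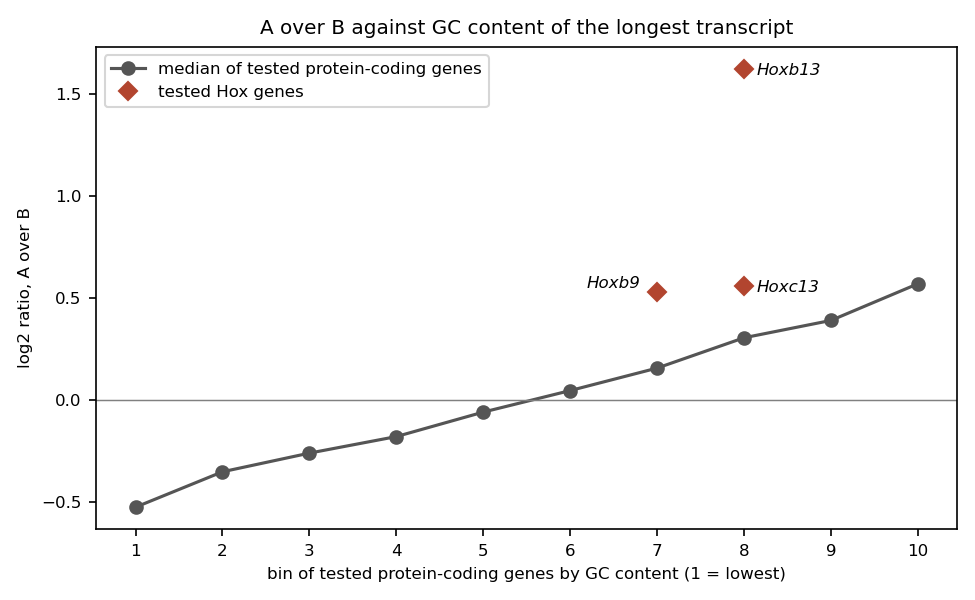
Log2 ratio of A over B (vertical axis) by bin of GC content of the longest transcript (horizontal axis, 1 lowest), with the median of the tested protein-coding genes in grey and 3 tested Hox genes as diamonds. The grey line climbs across the bins; Hoxb13 at 1.62 stands well above it, Hoxb9 at 0.53 and Hoxc13 at 0.56 closer to it.

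Of the 27 Hox genes with a count that did not enter the test, 17 had the higher CPM in A and 10 in B. Among all 4094 protein-coding genes with 1 to 50 counts that stayed under 1 CPM, 61.0% had the higher CPM in A, so the low Hox genes were near the background. Markers of differentiated cells were compared between the libraries as well, and their calls stand against the 76.8% of all tested genes that were called. The 8 endoderm markers summed to 57.7 CPM in A and 167 CPM in B, and of 5 tested 1 was called higher in A and 4 higher in B, led by Lama1 at 47.3 CPM in A and 142 CPM in B. The 10 mesoderm markers summed to 23.0 CPM in A and 15.7 CPM in B. The highest were Kdr with 253 counts in A and 191 in B, Eomes with 131 and 122, and Mesp2 with 123 and 61. T had 7 counts in each library and Msgn1 had 0. Of 6 tested 2 were called, Kdr and Mesp2, both higher in A. The 8 neuroectoderm markers summed to 119 CPM in A and 87.0 CPM in B, most of it Tubb3 and Nes, with Olig2 at 0, and of 4 tested 2 were called higher in A and 1 higher in B. The 11 fibroblast markers summed to 49.5 CPM in A and 32.9 CPM in B, most of it Thy1 and Pdgfrb, while Prrx1, Postn and Lum were at 0 and Col1a2 had 2 counts in A and 7 in B. Among 5 tested fibroblast markers, 3 were called higher in A and 1 higher in B. Their part in the Hox levels or in the difference between A and B was not tested.

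Most of the coding genes on either side of the clusters were transcribed, but on some sides the nearest was not above 1 CPM in both libraries. Of the 24 protein-coding genes that flank the clusters, 3 on each side, 21 passed 1 CPM in both libraries, against 2 of the 38 Hox genes. The median of the 24 was 69.4 CPM in A and 50.9 CPM in B. Those that did not pass were each the nearest on their side, Evx2 8.75 kb from Hoxd, Evx1 52.6 kb from Hoxa and Skap1 96.3 kb from Hoxb. Those that passed lay up to 910 kb away. On the far side of Hoxa from Hoxa13 lay Skap2, a signalling adaptor, at 66.2 CPM in A and 59.9 CPM in B, then Snx10 at 35.9 in A and 28.6 in B and Cbx3 at 16.1 in A and 23.2 in B. Beyond Hoxa13 lay Evx1, a homeobox gene of the primitive streak, with 6 counts in A and 47 in B, and it was called higher in B (log2 -1.57, exact binomial test, adjusted p = 1.37e-08). It passed the filter through B alone, where it was higher. Hibadh, further out, had 98.4 CPM in A and 83.9 CPM in B, and Tax1bp1 had 173 in A and 218 in B.

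Next to Hoxb13, Ttll6 had 16.4 CPM in A and 3.79 CPM in B, Calcoco2 108 in A and 41.8 in B, and Atp5g1 108 in A and 76.4 in B. All 3 were called higher in A, as Hoxb13 was and as were 37.7% of all tested genes, with log2 ratios of 1.88, 1.26 and 0.39. At the Hoxb1 end, Skap1 was low, with 23 counts in A and 11 in B, while Snx11 had 20.2 CPM in A and 29.4 CPM in B and Cbx1, a heterochromatin protein gene, 248 in A and 338 in B. Snx11 and Cbx1, 399 kb and 421 kb from the cluster, were called higher in B, as were 39.1% of all tested genes. Their log2 ratios were -0.63 and -0.55, so the tested genes on the 2 sides of Hoxb differed between the libraries in opposite directions. The part of position or of GC content in this was not tested.

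Beside Hoxc13 lay Calcoco1 at 110 CPM in A and 84.9 CPM in B, Atp5g2 at 10.7 in A and 9.07 in B, and Atf7 at 30.4 in A and 38.5 in B. Beyond Hoxc4 lay Smug1 at 19.2 CPM in A and 17.6 CPM in B, Cbx5 at 476 in A and 974 in B, and Hnrnpa1 at 214 in A and 264 in B. Beside Hoxd13, Evx2 had no count in either library, and Lnpk had 16.1 CPM in A and 23.2 CPM in B. Atp5g3 followed at 432 CPM in A and 293 CPM in B. At the Hoxd1 end, Mtx2, a mitochondrial import gene, had 72.6 CPM in A and 67.1 CPM in B, Hnrnpa3 92.8 in A and 90.5 in B, and Nfe2l2 103 in A and 95.6 in B. The 3 genes at that end of Hoxd were not called. Per length, Mtx2 stood at 19.7 RPKM in A and 18.3 in B, and Hoxd1, 60.7 kb away, at 0.135 in A and 0.0708 in B.

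**Figure D4:**
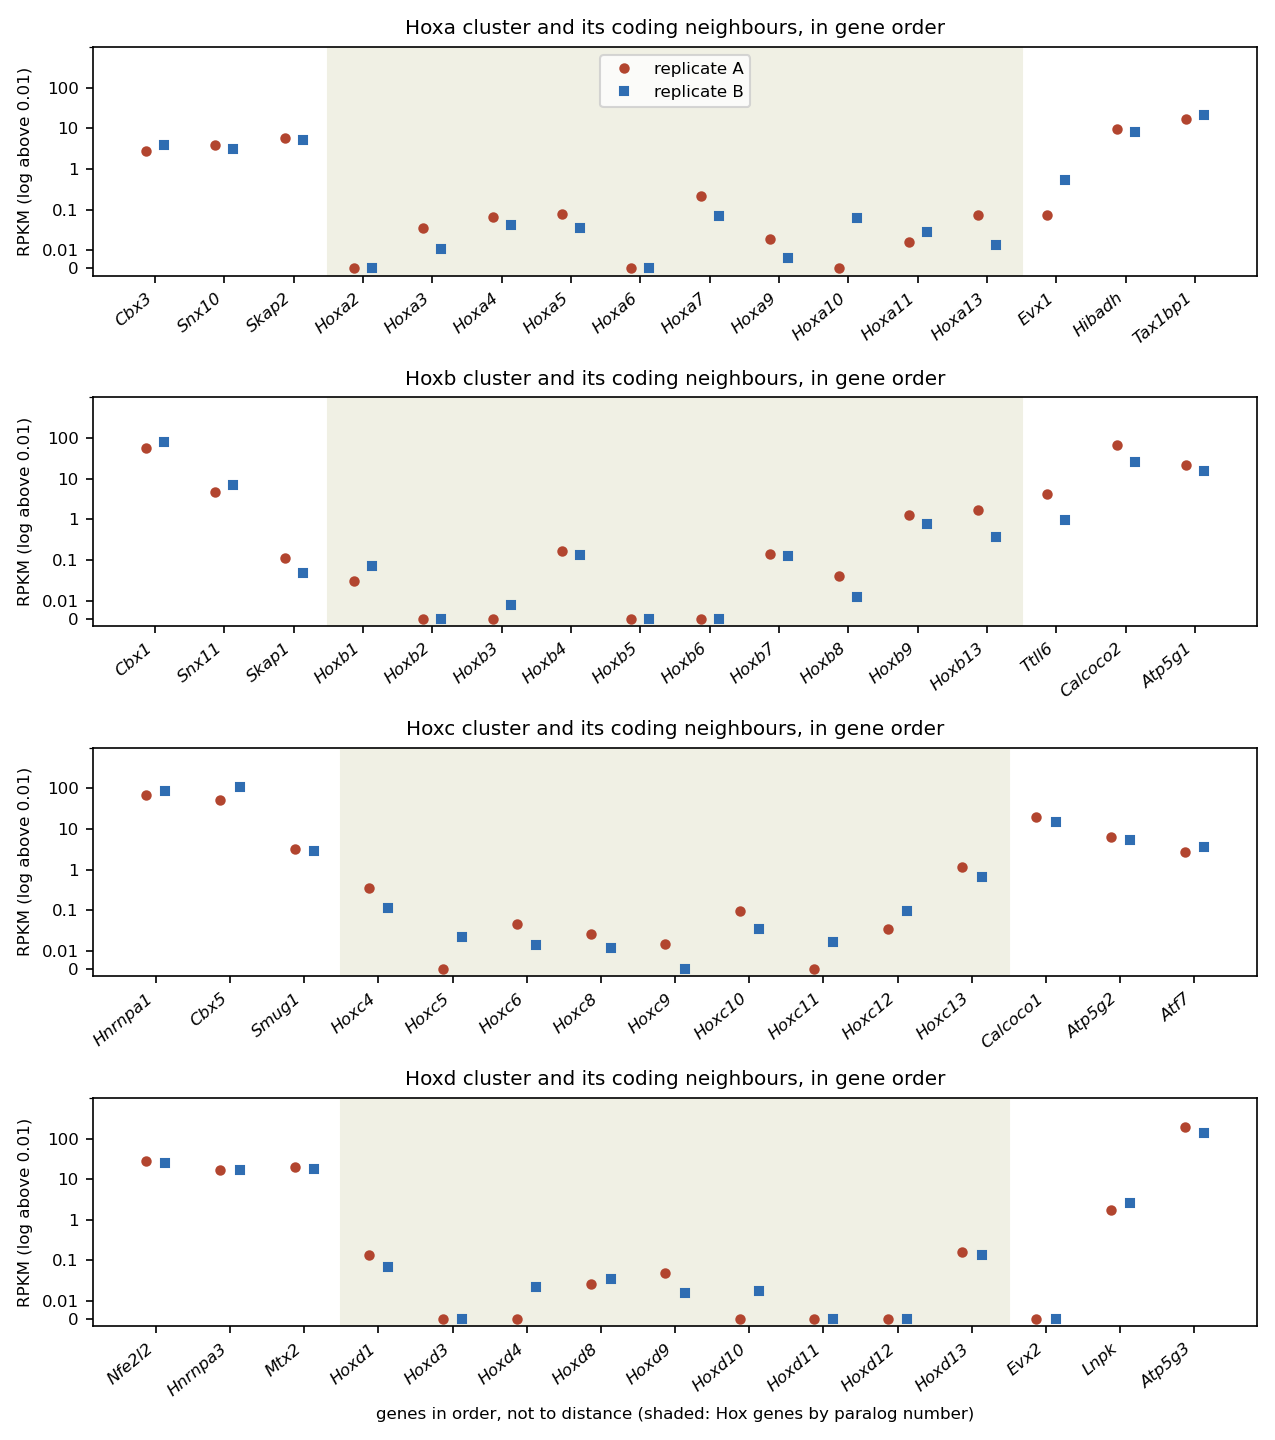
RPKM (log scale above 0.01, linear below) of the Hox genes described in each cluster, shaded, and of the 3 nearest protein-coding genes on each side, in gene order, with replicate A as circles left of replicate B as squares. Hoxb13 reaches 1.72 RPKM in A and 0.374 in B, Evx2 beside Hoxd13 has no count, and Evx1 and Skap1 lie in the range of the Hox genes.

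Within the clusters, between the outermost coding Hox genes, 45 other genes are annotated, nearly all noncoding. Of these, 31 had no count and 3 reached 1 CPM in A and in B, all of them in 1 stretch between Hoxb13 and Hoxb9. Gm11539, a processed pseudogene, had 2860 counts in A and 2249 in B, and its counts are uncertain because reads of the gene it was copied from can fit it. Gm53, a long noncoding RNA (chr11:96251105-96264868, + strand), had 362 counts in A and 273 in B. It was called higher in A (log2 0.41, exact binomial test, adjusted p = 4.2e-04). The next were Gm27605 with 24 counts in A and 3 in B and Hotairm1 with 14 in A and 2 in B, both under 1 CPM. Gm53 had 3.26 RPKM in A and 2.26 RPKM in B, above Hoxb9 with 1.24 RPKM in A and 0.743 RPKM in B on the same strand.

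The third was the Mir196a-1 hairpin (chr11:96265164-96265265, + strand), between Gm53 and Hoxb9. It had 40 counts in A and 33 in B, 1.44 CPM in A and 1.09 CPM in B, and was not called (log2 0.21, exact binomial test, adjusted p = 0.457). These are reads of polyadenylated RNA over the hairpin and not of the mature microRNA, which this preparation does not capture. The hairpins of Mir196a-2, Mir196b, Mir10a, Mir10b and Mir615 had no count in either library.

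The longest annotated 3' UTR of the 38 Hox genes was searched for a match to the seeds shown above, base 2 to 8, on the transcribed strand. The 7 letters ACTACCT, the match to miR-196, were present in 8 of the 38 Hox genes (21.1%), namely Hoxa4, Hoxa5, Hoxa7, Hoxa9, Hoxb1, Hoxb6, Hoxb7 and Hoxc8, against 6.10% of 20679 genes with a 3' UTR. The match to miR-10, ACAGGGT, was present in 3 (7.89%), Hoxa3, Hoxb3 and Hoxd1, against 12.5%. The median UTR had 963 bases for Hox genes and 964 for all genes. Hoxb9, Hoxb13 and Hoxc13 carry neither.

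Pairing of the whole of miR-196a-5p, without gaps, was then scored along the same UTRs. The site of Hoxb8 and that of Hoxa7 are shown, since the Hoxb8 site is the most complete of all genes and Hoxa7 had the most counts of the 8 genes just named for miR-196. Capitals mark bases in Watson-Crick pairs with miR-196a-5p. Lower case marks G-U pairs and unpaired bases.
Hoxb8: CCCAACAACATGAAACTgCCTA
Hoxa7: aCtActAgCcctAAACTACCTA
The Hoxb8 site (chr11:96284888-96284909, + strand) has 21 Watson-Crick pairs and 1 G-U pair over 22 bases, and no other of 20577 3' UTRs had as many. Its G-U pair lies inside the seed, so the search for the seed letters does not find it. In the mouse embryo miR-196 is known to direct cleavage of the Hoxb8 transcript at this site. Hoxb8 had 3 counts in A and 1 in B in these Dgcr8 knockout cells. The Hoxa7 site shown (chr6:52215210-52215231, - strand) is the best-scoring in that UTR. It has 14 Watson-Crick and 3 G-U pairs, near the median best score of 13 over all UTRs. Other miR-196 seed matches in the Hoxa7 UTR lie at chr6:52215400-52215421, chr6:52215363-52215384 and chr6:52215231-52215252, with 13, 12 and 9 Watson-Crick pairs. Hoxa7 had 17 counts in A and 6 in B. A match in letters is a description, and without a library that has Dgcr8 the effect of these microRNAs on Hox levels was not tested.

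Promoters, 250 bases before to 50 after the start, were available for 22 of the 38 Hox genes from RefSeq (GRCm38.p6). The 2 shown are those of a gene with no count, Hoxa2, and of the highest gene of the Hoxd cluster, Hoxd13, with each CG dinucleotide in capitals since CpG islands are the known landing sites of Polycomb in ES cells.
Hoxa2: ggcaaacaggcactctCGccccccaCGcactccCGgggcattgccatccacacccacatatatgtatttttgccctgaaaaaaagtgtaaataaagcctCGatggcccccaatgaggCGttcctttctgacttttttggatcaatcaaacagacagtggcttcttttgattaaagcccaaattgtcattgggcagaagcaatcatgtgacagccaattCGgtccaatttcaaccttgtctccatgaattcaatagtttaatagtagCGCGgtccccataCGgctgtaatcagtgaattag
Hoxd13: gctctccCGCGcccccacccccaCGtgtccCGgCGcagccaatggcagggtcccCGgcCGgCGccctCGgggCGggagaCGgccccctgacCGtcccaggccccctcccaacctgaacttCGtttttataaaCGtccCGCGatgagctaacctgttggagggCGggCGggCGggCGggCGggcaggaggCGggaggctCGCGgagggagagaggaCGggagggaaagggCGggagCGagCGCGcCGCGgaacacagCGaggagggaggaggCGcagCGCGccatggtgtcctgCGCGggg
The Hoxa2 window (chr6:52164782-52165081, - strand) holds 9 CG and the Hoxd13 window (chr2:74667975-74668274, + strand) holds 37. CG reads the same on both strands, and 95.8% of 19931 windows of protein-coding genes hold at least 1. Hox windows held a median of 13.5, with a range of 4 to 45, close to the 14 of all protein-coding windows. The 5 windows of Hox genes with no count had a median of 13 (range 4 to 26) and the 17 of Hox genes with a count a median of 14. Among all protein-coding genes, windows of those with no count had a median of 2 and windows of those that reached 1 CPM in both a median of 21. All 5 windows of Hox genes with no count thus held more CG than the median window of protein-coding genes with no count. Of the 22 windows, 5 start over 100 bases from the GENCODE start of their gene, from 269 bases in Hoxa3 to 15461 in Hoxc4. All 5 belong to genes with a count, so the median of 14 includes windows away from that start.

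Genes that act on or with Hox genes were described from lists, and the genes named first in each are those of highest mean CPM, which is not corrected for length. All 12 PRC2 genes, whose complex writes H3K27 methylation, passed 1 CPM in both libraries, and the median gene had 227 CPM in A and 303 CPM in B. Jarid2 had 515 CPM in A and 735 in B, Rbbp4 489 in A and 576 in B, and Rbbp7 479 in A and 542 in B. Per length, the catalytic subunit gene Ezh2 had 26.2 RPKM in A and 38.4 in B, and its relative Ezh1 had 8.10 in A and 6.14 in B. Of the 12, 3 were called higher in A and 9 higher in B. Beside this and the counts of calls that follow stand the shares over all tested genes, 37.7% called higher in A and 39.1% higher in B.

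Of the 18 PRC1 genes, whose complexes compact chromatin and ubiquitinate histone H2A, 16 passed 1 CPM in both libraries, with 6 called higher in A and 7 higher in B. Phc1 led with 615 CPM in A and 656 in B, followed by Cbx7 with 227 in A and 217 in B and Rnf2 with 104 in A and 151 in B. Cbx8 had 0.933 CPM in A and 0.495 CPM in B. All 11 MLL and trithorax genes, which oppose Polycomb, were detected, with 1 called higher in A and 10 higher in B. The highest were Wdr5 at 376 CPM in A and 396 in B, Psip1 at 274 in A and 379 in B, and Ash2l at 313 in A and 334 in B. All 7 CTCF and cohesin genes, which set the boundaries within the clusters, were detected and all 7 were called higher in B, against 39.1% of all tested genes. Rad21 led with 513 CPM in A and 758 in B. Smc3 had 228 in A and 363 in B, and Smc1a 192 in A and 225 in B.

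GC content and the median log2 ratio both differed among these lists. The tested CTCF and cohesin genes had a median GC content of 42.4% and a median log2 ratio of -0.77, PRC2 genes 46.5% and -0.31, and MLL and trithorax genes 46.9% and -0.37, while the median tested protein-coding gene had 50.2%. PRC1 genes, at 52.6%, had a median log2 ratio of -0.11. The 3 tested Cdx, ParaHox and Evx genes had 61.2% and -0.47, and the 5 tested endoderm markers 53.8% and -1.34. Among them, Cdx2, Evx1, Gata6 and Sox7 entered the test through B alone, where they were higher. Both medians were thus partly set by the filter. The part of GC content in these differences was not tested.

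TALE homeodomain proteins bind DNA together with Hox proteins. Of the 8 genes described, 6 passed 1 CPM in both libraries, with 4 called higher in A and 3 higher in B (median log2 0.03). Pbx2 had 69.3 CPM in A and 50.3 in B, Pknox1 36.3 in A and 43.6 in B, and Pbx3 8.32 in A and 4.25 in B. The Meis genes were lower and differed from one another between libraries. Meis2 had 25 counts in A and 142 in B (log2 -1.97, exact binomial test, adjusted p = 2.19e-20) and entered the test through B alone, and Meis3 had 162 in A and 64 in B (log2 1.18, adjusted p = 5.84e-11). With 24 counts in A and 33 in B, Meis1 was the lowest of the 8 by CPM.

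Of the 8 Cdx, ParaHox and Evx genes, homeobox relatives that act upstream of or beside Hox genes, 1 passed 1 CPM in both libraries. This was Cdx1, a retinoic acid and Wnt target that activates Hox genes, with 344 counts in A and 94 in B (12.3 CPM in A, 3.10 CPM in B, log2 1.74, exact binomial test, adjusted p = 1.22e-34). Cdx2 had 23 counts in A and 38 in B and was not called (adjusted p = 0.0908, exact binomial test). Gsx1 had 10 counts in each library and Gsx2 had 3 in A and 0 in B, both under 1 CPM.

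Of the 14 retinoic acid genes, 10 passed 1 CPM in both libraries, with 8 called higher in A and 2 higher in B (median log2 0.56, median GC content 56.3%). The receptor gene Rarg led with 352 CPM in A and 442 in B, followed by Rxrb with 79.1 in A and 56.9 in B and Rara with 81.8 in A and 50.2 in B. Crabp1 and Crabp2, which carry retinoic acid in the cytoplasm, had 1012 counts in A and 200 in B and 690 in A and 289 in B. Rarb and Cyp26a1, textbook direct targets of retinoic acid, stayed low, Rarb with 6 counts in A and 5 in B and Cyp26a1 with 9 in A and 13 in B. Per length, Rarb had 0.0409 RPKM in A and 0.0313 in B and Cyp26a1 0.163 in A and 0.216 in B.

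Of the 7 axial progenitor and trunk signals, 2 passed 1 CPM in both libraries, Gdf11 with 97 counts in A and 80 in B and Wnt3a with 36 in each. Tbx6 had 34 in A and 23 in B, and T and Nkx1-2, which mark the progenitors of the trunk, had 7 and 10 counts in A and 7 and 18 in B. The 3 genes of this list that entered the test were not called.

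**Figure D5:**
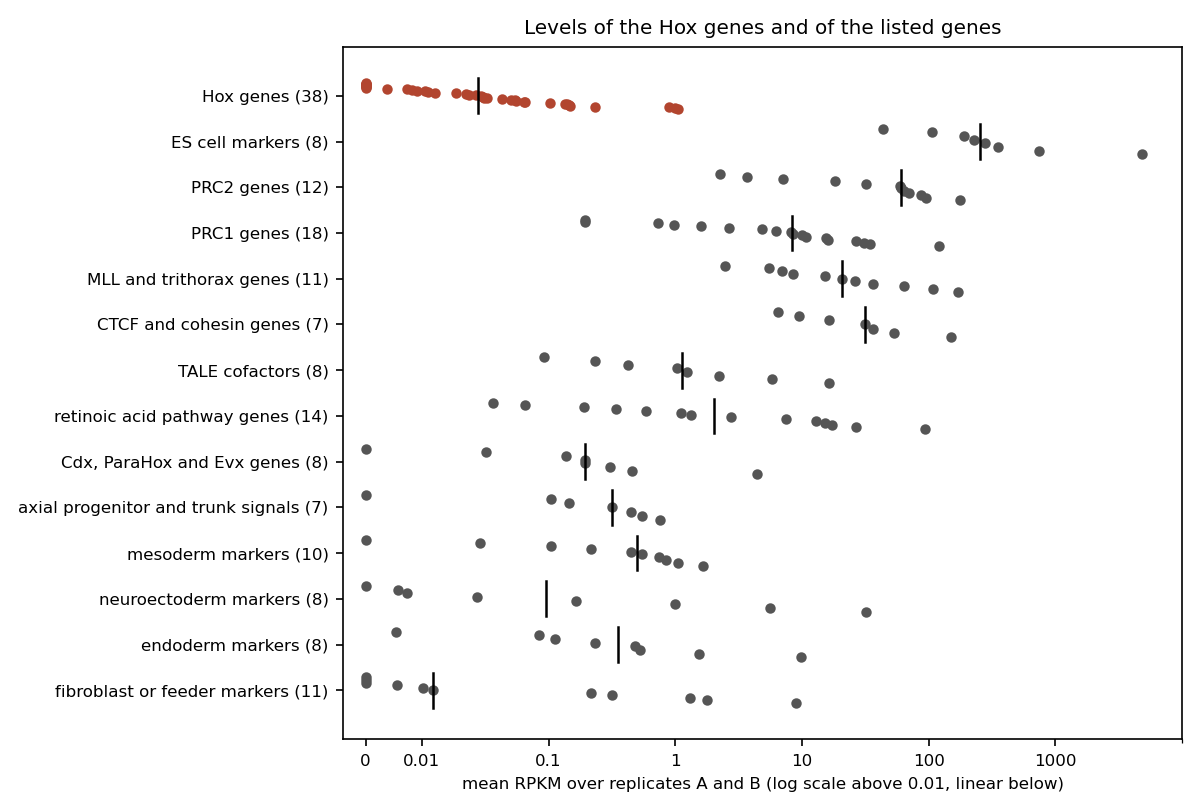
Mean RPKM over replicates A and B (log scale above 0.01, linear below) of the Hox genes described (top row) and of each gene of the lists named at the left, with the number of genes in brackets; black bars are medians. The Hox genes drawn, up to Hoxb13 at 1.05 RPKM, lie below every gene of the PRC2, MLL and trithorax, and CTCF and cohesin lists, and the Cdx, trunk and germ layer lists reach down into the range of the Hox genes.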

How the data were processed

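Both files hold raw counts per Ensembl gene as deposited, 1 library each, without normalization. Per the submitters' processing notes, STAR 2.4.2a, featureCounts 1.4.5-p1 and mm10 were used. Not given in the sources used here are the annotation release, the strand setting and how multimapping reads were treated. Of 43629 identifiers, 42548 were matched to GENCODE M21 on GRCm38. From the counts, CPM over library totals and RPKM over the union of exons were computed here, with exact Poisson or Clopper-Pearson limits. Genes with at least 1 CPM in A or B were compared between A and B with an exact two-sided binomial test given TMM-scaled sizes (edgeR 4.0.16, R 4.3.3; factors 1.04 in A and 0.965 in B), with Benjamini-Hochberg adjustment and an adjusted p under 0.05 as the call. It compares libraries, not conditions. The test was also run on simulated Poisson counts with set fold changes and no other spread between libraries. That is the model the test assumes, so the run cannot check its calls in these libraries. Statistics used Python 3.11.15, numpy 2.4.6, scipy 1.17.1 and pandas 2.3.3. The alternatives covered library totals, size factors of DESeq2 1.42.0, other filters, pseudocounts and lengths, Fisher's exact test and a GC shift. Of the Hox genes 1, and 1 gene of the lists, are not reported here, and no sum includes them. Members and lists were chosen with earlier results of these data known. Values were given for each Hox gene at 1 CPM in either library, the extremes of each cluster, genes with no count and all flanking genes. They were also given for the 5 highest other genes inside the clusters. Of each list except the markers of differentiated cells, the 3 highest and up to 2 genes under 1 CPM were given. Other genes were named after their values were seen.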

Additional observations from a re-analysis of the deposited data

How the results depend on the processing

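With 2 libraries of 1 group the depth limits most Hox values to single counts. Of the 38 Hox genes described, 2 were at 1 CPM in both libraries. The number was 0 at 2 CPM, and also 0 at an RPKM of 1, a scale added after the data were seen. It was 3 at 0.5 CPM, 2 with TMM or DESeq2 size factors, and 2 to 3 with 1 library alone. The 3 calls were made with DESeq2 size factors, library totals and Fisher's exact test as well. Under both looser filters 5 of these genes were called, all higher in A, with Hoxa7 and Hoxc4 added. With no filter beyond 1 count that was 5 of 30 tested Hox genes, against 11641 of all 23698 genes tested. With a filter of 10 counts over both libraries it was 5 of 9, against 11812 of 17644. With the expected ratio shifted by GC content, also added after the data were seen, 1 was called, Hoxb13. The planned sums over all 4 clusters and over all paralog groups are replaced by narrower ones, chosen after the data were seen. The log2 ratio of Hoxb over Hoxc in summed level was 0.83, and 0.64 to 0.92 in single libraries. It was 0.41 with median RPKM and 1.67 without the highest gene of each cluster, which leaves Hoxb13 in the sum of Hoxb. The share of groups 9 to 13 in the counts of groups 4 to 13 was 78.9%, 33.2% without Hoxb9, Hoxb13 and Hoxc13, 78.7% with RPKM and 78.0% to 79.7% in single libraries. A pseudocount added to both libraries cannot change the direction of a log2 ratio, only its size. That of Hoxb13 was 1.98 with a pseudocount of 0.1 and 1.33 with 1. The lengths tried were the same for each of Hoxb9, Hoxb13 and Hoxc13, so they could not move a level per length. No paired analysis was possible because the series holds 1 group.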
